A study of Mus musculus with 23 samples.

Results

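The experiment described here set arrays hybridised with poly(A) RNA against arrays hybridised with total RNA, all of prefrontal cortex taken 192 h after injection. It asked how bright each probe was within its own array, and not how tumour and control RNA differed on it. The arrays were chosen by their labels, except that 1 array with a fitting label was left out, as given below. They were 7 of the 23 arrays of the series and held 4 of its 11 replicates. Poly(A) RNA was measured in replicates 1 and 2 on 3 arrays (310 for replicate 1, and 306 and 314 for replicate 2). Total RNA was measured in replicates 3 and 4 on 4 arrays (417 and 419 for replicate 3, and 497 and 498 for replicate 4). An eighth array labelled 192 h, array 262 of poly(A) replicate 1, was left out because its brightness did not follow its probe names, with a Spearman's rho from -0.0195 to 0.0901 against the 7 other arrays. Array 262 was also on print layout 2, which none of the 7 others used.

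All mice were male, 8 weeks old and of the Balb/c strain. Each array carried cortex RNA of mice given 1000000 CT-26.WT cells under the skin in 300 µl of PBS, and cortex RNA of mice given 300 µl of PBS alone, labelled with the opposite dye. CT-26.WT is a mouse colon carcinoma line. Total RNA of every replicate was extracted with TRIzol, and for replicates 1 and 2 poly(A)+ RNA was then purified from it with the MicroPoly(A) Pure kit. All RNA was reverse-transcribed with oligo dT and random primers together. The labels do not say whether a replicate was 1 mouse or a pool, so p-values measure the spread between these samples. Poly(A) replicate 1 had tumour RNA in Cy5 only and poly(A) replicate 2 in Cy3 only, whereas both total RNA replicates had 1 array in each orientation.

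Most mRNAs end in a poly(A) tail, and oligo dT on a solid support captures them while ribosomal RNA, transfer RNA and other RNAs without a tail are washed away. The mRNAs of replication-dependent histones end in a stem-loop in place of a tail and are the textbook exception among protein-coding transcripts. In total RNA, random primers also copy the untailed RNAs, which make up most of the mass, and the labelled cDNA of any given mRNA is then a smaller share of the mix. An array ranks its probes by brightness, which reflects transcript abundance, labelling and the probe itself. Ranks of the same probe can therefore be set side by side between RNA types. A gap in rank between different probes need not be a gap in abundance.

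Print layout differed along with RNA type, and this touches every comparison below. The poly(A) arrays were on layout 3, total RNA replicate 3 on layout 4 and total RNA replicate 4 on layout 5. Layouts 3 and 5 held the same probe at all 9078 spots named on both, whereas layouts 3 and 4 held the same probe at 33 of 8222 spots. Total RNA replicate 4 therefore shared its spot positions with the poly(A) arrays, and total RNA replicate 3 did not. Layout, print and RNA type cannot be told apart in the main comparison.

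The 10080 spots of an array carried 9008 distinct probes, each a GenBank entry. Probes with a usable value numbered 3770 to 6096 on the poly(A) arrays and 4105 to 7854 on the total RNA arrays. Median spot intensity was 306500 to 672400 arbitrary units on the poly(A) arrays and 120000 to 262700 on the total RNA arrays. Signal stood 2.46 to 3.15 times over local background on the poly(A) arrays and 2.16 to 2.70 times on the total RNA arrays. The log2 ratio between channels was wider on poly(A) array 310 than on the other 6, with an interquartile range of 1.77 against 0.76 to 0.93. All 7 arrays together gave a value for 1471 probes (1452 gene symbols), and the ranks below run from 0 to 100 among these.

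The labelled tissue was checked against marker lists on each array, with ranks taken among all usable probes of that array. Neuronal cytoskeleton genes were bright on both RNA types, and astrocyte genes on the poly(A) arrays but not on every total RNA array. The median percentile of 15 neuronal cytoskeleton probes was 85.0 to 87.5 on the poly(A) arrays and 78.1 to 91.8 on the total RNA arrays. For 8 astrocyte probes it was 82.4 to 89.2 on poly(A) arrays and 44.3 to 82.9 on total RNA arrays. Genes of other tissues lay lower than the cytoskeleton genes. The 42 keratin and hair probes had a median percentile of 33.7 to 45.7 on poly(A) arrays and 19.7 to 33.1 on total RNA arrays, and 55 olfactory and vomeronasal receptor probes had 17.5 to 49.8 on poly(A) arrays and 20.6 to 37.6 on total RNA arrays. Some brain lists overlapped these in part, so the check is coarse. The 4 endothelial probes had 16.7 to 69.4 on poly(A) arrays and 24.1 to 42.9 on total RNA arrays. The 7 microglia and macrophage probes had 24.4 to 44.4 on poly(A) arrays and 41.4 to 59.1 on total RNA arrays. No erythrocyte gene of the list was on the arrays.

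The brightest probes were shared by the RNA types in part. Snn, which encodes the small protein stannin, ranked at 99.5 and 98.7 in poly(A) replicates 1 and 2 and at 98.0 and 98.7 in total RNA replicates 3 and 4, and it was among the top 6 of both. Uchl1, an abundant neuronal deubiquitinating enzyme, had 99.8 and 98.6 in poly(A) RNA and 96.1 and 96.4 in total RNA. Both stayed at the top of every replicate. The other probes of the poly(A) top 6 were Basp1, Cox5b, Armc1 and Map1b. The Armc1 probe among these had 99.7 and 96.7 in poly(A) RNA against 93.3 and 99.97 in total RNA. Another Armc1 probe was dimmer in poly(A) RNA, with 72.6 and 59.8 against 89.0 and 92.6 in total RNA. Basp1, a membrane-bound protein of growth cones, ranked at 99.97 and 99.7 in poly(A) RNA and at 58.7 and 64.4 in total RNA, so its groups did not overlap. Map1b, a microtubule-associated protein of neurons, had 98.7 and 99.5 in poly(A) RNA against 85.4 in replicate 3 and 18.8 in replicate 4 of total RNA, a gap between the total RNA replicates wider than that between RNA types. The total RNA top 6 held Snn, Rpl37a, 2310015D24Rik, Pcsk1n, Tmem98 and Cspg5, and each of these ranked between 86.1 and 99.5 in both poly(A) replicates.

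Replicates of poly(A) RNA resembled each other, and replicates of total RNA did not resemble each other more than they resembled poly(A) RNA. Spearman's rho across the 1471 probes was 0.851 between poly(A) replicates 1 and 2 and 0.424 between total RNA replicates 3 and 4. Between RNA types it was 0.351 and 0.481 for poly(A) replicate 1 against total RNA replicates 3 and 4, and 0.428 and 0.421 for poly(A) replicate 2 against the same. The median probe moved by 9.35 rank points between the poly(A) replicates, by 17.5 points between the total RNA replicates and by 17.9 to 20.9 points between RNA types. A shift of over 25 points was seen for 10.9% of probes within poly(A) RNA, for 35.4% within total RNA and for 36.3% to 41.9% between types. These are descriptions across probes, which share a print and a dye labelling and are not independent replicates.

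**Figure D1:**
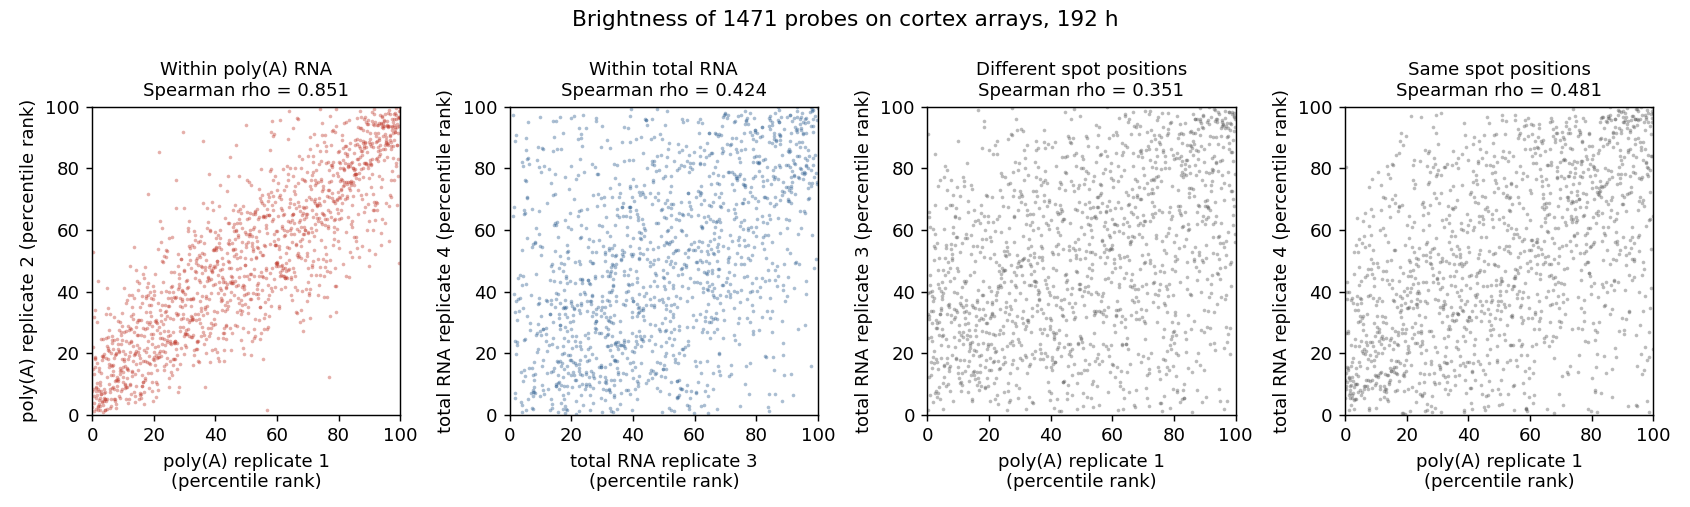
Percentile rank of brightness of 1471 probes (points) in pairs of replicates, with both axes from 0 to 100. The poly(A) pair forms a band along the diagonal (rho 0.851), whereas the total RNA pair (0.424) is as scattered as poly(A) replicate 1 against total RNA replicate 3, at different spot positions (0.351), or replicate 4, at the same positions (0.481).

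The scatter plots of replicate pairs make the same point by eye. By single arrays, the 3 pairs from within a replicate had a rho of 0.622 to 0.861. The lowest was that of arrays 306 and 314 of poly(A) replicate 2 (0.622). Each of these was closer to array 310 of poly(A) replicate 1 (0.855 and 0.677). The range across poly(A) replicates thus overlapped that within a replicate, and the 4 pairs across total RNA replicates had 0.367 to 0.392. Pairs of a poly(A) array with an array of total RNA replicate 3 had 0.302 to 0.465, and with an array of replicate 4 they had 0.253 to 0.473. These 2 ranges overlapped, with and without shared spot positions.

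Position on the slide moved with brightness all the same. Spots are printed in 48 sub-grids. For the 1445 probes with 1 sub-grid on each layout, the sub-grid of layouts 3 and 5 accounted for 25.1% and 23.5% of the variance of rank in poly(A) replicates 1 and 2, and for 27.6% in total RNA replicate 4, which shares those positions. In total RNA replicate 3, printed elsewhere, the same grouping accounted for 9.71%, and the replicate's own sub-grids for 24.1%. Of the variance of the difference between RNA types, 23.7% lay between sub-grids of layouts 3 and 5, whose means ran from -22.3 to 32.7 points. The part of position in the differences given below was not tested beyond a fit with each sub-grid centred.

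**Figure D2:**
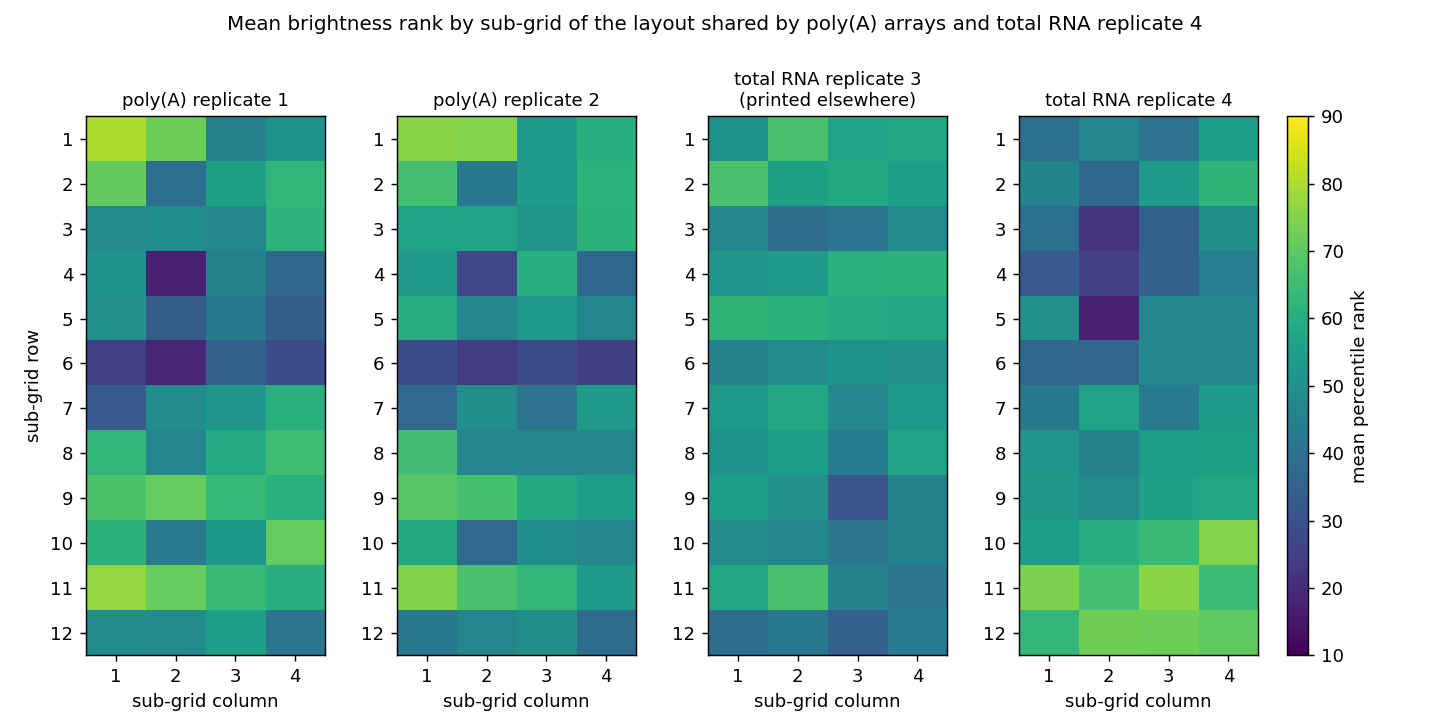
Mean percentile rank of the probes in each of the 48 sub-grids (12 rows by 4 columns) of the layout shared by the poly(A) arrays and total RNA replicate 4, with 1 panel per replicate. Both poly(A) replicates are dim across sub-grid row 6, and total RNA replicate 4 is bright in row 12. Row 11 is bright in total RNA replicate 4 and in both poly(A) replicates. Total RNA replicate 3, whose probes lay elsewhere on its slides, is more even.

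The map of sub-grid means shows a band of dim blocks in row 6 of both poly(A) replicates that was less marked in total RNA replicate 4. Sub-grid means reached from 17.3 to 80.2 in poly(A) replicate 1 and from 23.8 to 75.9 in poly(A) replicate 2. They reached from 17.0 to 75.8 in total RNA replicate 4, and from 31.1 to 67.1 in total RNA replicate 3.

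Akt2, Grin2b, Csnk2a1 and Cyfip2 were bright on poly(A) arrays and dim on total RNA arrays, and Ptp4a2, Tgfbi, Coa3 and Hoxb8 had the opposite order. None of these passed the test over all probes. In the comparison of 2 poly(A) replicates with 2 total RNA replicates, limma with Benjamini-Hochberg adjustment called 0 of 1471 probes (0%) at an adjusted p under 0.05, and the smallest adjusted p was 0.128. At an unadjusted p under 0.05 there were 275 probes (18.7%), 133 higher in poly(A) RNA and 142 lower. The replicates of the RNA types did not overlap for 727 probes (49.4%), of which 327 (22.2%) were higher in poly(A) RNA and 400 (27.2%) lower. The difference of a probe ran from -66.8 to 81.3 points, with a median of -0.54 and a median standard error of 12.6, and it exceeded 50 points for 35 probes higher and 27 lower in poly(A) RNA. An exact permutation test of 2 replicates against 2 cannot reach 0.05 and was not used.

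The 24 genes named next are those of smallest p in each direction whose replicates did not overlap, and none was called. Among the 12 brighter in poly(A) RNA, 3 encode protein kinases or their subunits. Genes are grouped by role for reading only, and how common each role is among all measured probes was not counted. Akt2, a serine/threonine kinase of insulin signalling, ranked at 81.8 and 79.6 in poly(A) replicates 1 and 2, against 4.04 and 1.05 in total RNA replicates 3 and 4. Its difference was 78.2 ± 10.6 points (SE). Csnk2a1, the catalytic subunit of casein kinase 2, had 82.9 and 80.9 in poly(A) RNA against 8.19 and 7.0 in total RNA. Replicates of a type lay within a few points of each other for both genes, which a choice by smallest p favours. Uhmk1, a kinase with an RNA-binding motif like that of a splicing factor, had 87.7 and 79.9 in poly(A) RNA against 20.1 and 21.7 in total RNA.

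A second set of these genes is known from neurons and synapses. Grin2b encodes the GluN2B subunit of the NMDA-type glutamate receptor. It ranked at 81.0 and 89.1 in poly(A) RNA, against 7.41 and 8.12 in total RNA, a difference of 77.3 ± 10.8 points (SE). By array, Grin2b had 81.0 on array 310, 84.8 on array 306 and 93.3 on array 314, against 9.96, 4.86, 8.94 and 7.31 on total RNA arrays 417, 419, 497 and 498. Every poly(A) array was thus far above every total RNA array. Cyfip2, a subunit of the WAVE complex that governs actin branching, had 94.5 and 90.4 in poly(A) RNA against 8.50 and 26 in total RNA. Cadm3, a neural adhesion protein, had 97.1 and 76.1 in poly(A) RNA against 4.49 and 14.5 in total RNA. For both, the total RNA replicates lay further apart than those of Grin2b, and the types did not overlap. Spock2, an extracellular proteoglycan of brain, had 97.4 and 96.0 in poly(A) RNA against 26.1 and 22.0 in total RNA. Armcx3, an outer mitochondrial membrane protein tied to mitochondrial transport in neurons, had 72.0 and 69.5 in poly(A) RNA against 13.5 and 13.9 in total RNA.

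The other 4 genes of this direction have no shared role. Tmem222, a membrane protein, had the largest difference of all probes at 81.3 ± 11.9 points (SE), with 96.2 and 88.3 in poly(A) RNA against 2.01 and 19.9 in total RNA. Dynll2, a dynein light chain, had 98.1 and 76.3 in poly(A) RNA against 19.7 and 17.7 in total RNA. Insl6, a relaxin-family peptide known from testis, had 81.1 and 71.4 in poly(A) RNA against 7.92 and 7.31 in total RNA. Its place among cortex genes is a description of the probe and says nothing of where it is expressed. Bach2, a transcriptional repressor known from B cells, had 58.6 and 71.0 in poly(A) RNA against 7.27 and 2.24 in total RNA.

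**Figure D3:**
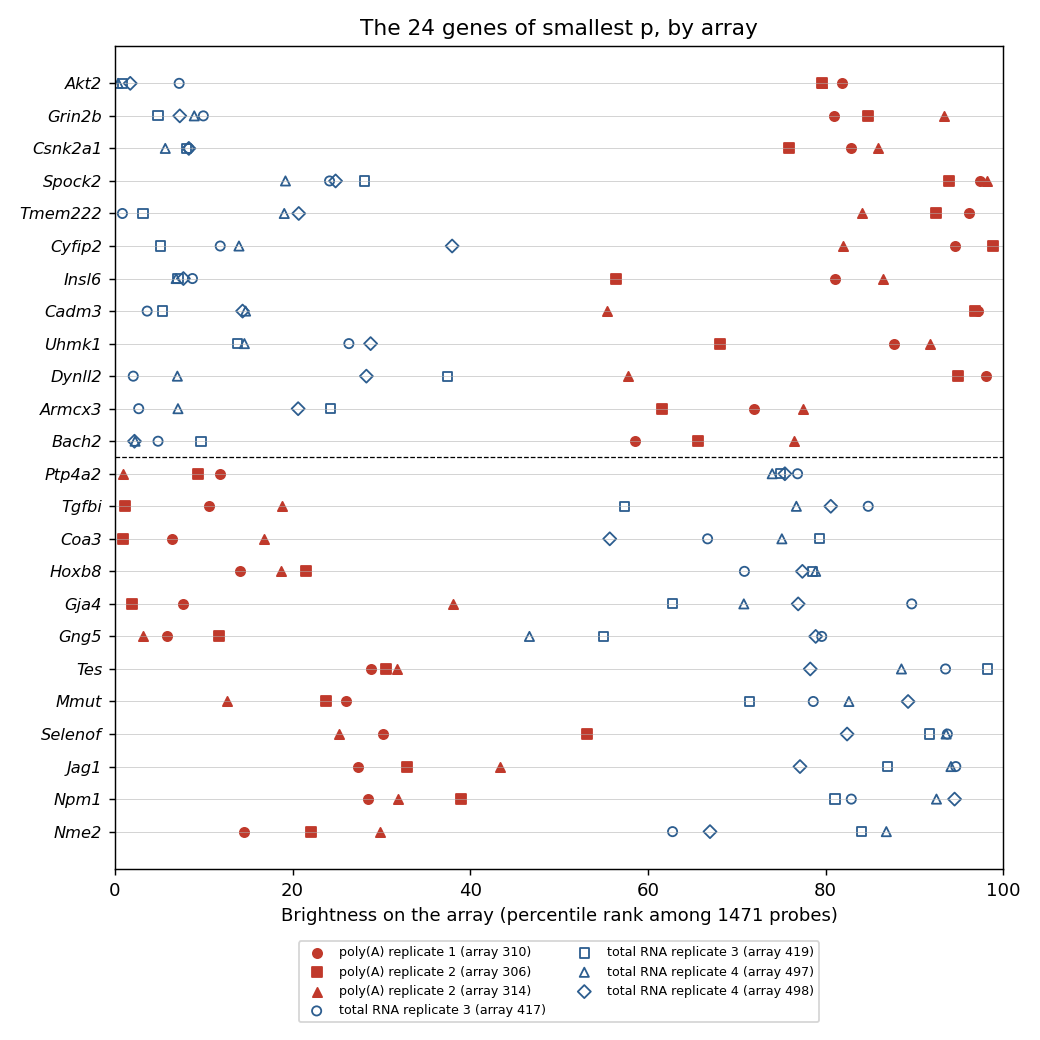
Percentile rank on each of the 7 arrays (points, filled for poly(A) and open for total RNA) of the 24 genes of smallest p, with the 12 higher in poly(A) RNA above the dashed line and the 12 lower below it. Poly(A) and total RNA arrays do not overlap for any of the 24, and the poly(A) arrays of replicate 2 lie far apart for Cadm3 (96.8 and 55.4).

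Among the 12 genes dimmer in poly(A) RNA, Ptp4a2, a small protein tyrosine phosphatase, had the lowest difference of all probes at -66.8 ± 10.7 points (SE). It ranked at 11.8 and 5.17 in poly(A) RNA against 75.9 and 74.7 in total RNA. Tgfbi, an extracellular matrix protein induced by TGF-beta, had 10.57 and 10.03 in poly(A) RNA against 71.1 and 78.7 in total RNA. In both genes the total RNA replicates were close to each other, which a choice by smallest p favours. Over all 1471 probes, 35.4% lay more than 25 points apart between the total RNA replicates. Coa3, an assembly factor of cytochrome c oxidase, had 6.42 and 8.84 in poly(A) RNA against 73.0 and 65.4 in total RNA. Hoxb8, a homeobox factor known for patterning the trunk, had 14 and 20.1 in poly(A) RNA against 74.7 and 78.1 in total RNA.

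Signalling and adhesion genes made up part of the remainder. Gja4, the connexin 37 of vessel walls, had 7.65 and 20.0 in poly(A) RNA against 76.2 and 73.9 in total RNA. Jag1, a ligand of Notch receptors, had 27.4 and 38.1 in poly(A) RNA against 90.8 and 85.6 in total RNA. Gng5, a G protein gamma subunit, had 5.88 and 7.44 in poly(A) RNA against 67.3 and 62.8 in total RNA. Of these, Gng5 was the closest between its poly(A) replicates. Tes, a protein of focal adhesions, had 28.9 and 31.1 in poly(A) RNA against 95.9 and 83.4 in total RNA. The last 4 were Mmut, the methylmalonyl-CoA mutase of mitochondria, Selenof, a selenoprotein of the endoplasmic reticulum, Npm1, the abundant nucleolar protein nucleophosmin, and Nme2, a nucleoside diphosphate kinase. Their differences lay between -58.3 and -54.9 points, and Npm1 had 28.4 and 35.5 in poly(A) RNA against 82.0 and 93.5 in total RNA.

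The plot of these 24 genes by array shows no overlap between the RNA types for any of them, which their choice fixes in part. The 24 were picked by p and by lack of overlap on these same arrays. Being called again in the fits below therefore adds no separate support for them. With each sub-grid centred, the sizes of the 24 differences ran from 38.7 to 80.1 points. Without total RNA replicate 3, so that all arrays shared their spot positions, the test called 155 of 2114 probes (7.33%), 89 higher and 66 lower in poly(A) RNA, and 22 of the 24 were among them. Without total RNA replicate 4 it called 256 of 1615 probes (15.9%), 143 higher and 113 lower, and all 24 were among them. In both fits the spread comes from the 2 poly(A) replicates alone, and the lone total RNA replicate is assumed to vary like them. With arrays as samples and the replicate as a random block it called 59 of 1471 probes (4.01%), 28 higher and 31 lower in poly(A) RNA, and 22 of the 24 were among them. Without poly(A) replicate 1 or 2, where the spread comes from the total RNA replicates alone, it called 0 of 1898 (0%) and 0 of 2343 (0%), with 82 and 89 probes at an unadjusted p under 0.05.

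The gene lists had no called member, and 173 probes of the lists were measured on all 7 arrays. Of these, 36 (20.8%) had an unadjusted p under 0.05, beside 18.7% of all 1471 probes. The median difference was negative for cytosolic ribosomal proteins, translation factors and glycolysis and positive for inhibitory neuron markers and immediate early genes, beside a median difference of -0.54 points over all probes. The alternatives given below can hold other members of a list, since the probes with a value on every array used then differ. How much of a shift in a list median came from that was not tested.

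Cytosolic ribosomal proteins form the ribosome's protein part and have short, abundant mRNAs. Of 34 probes, 28 were measured, 22 lower and 6 higher in poly(A) RNA. Replicates of the types did not overlap for 15 lower and 2 higher members of the 28, beside 27.2% lower and 22.2% higher among all 1471 probes. The median rank of the list was 73.8 and 86.6 in poly(A) replicates 1 and 2 and 86.6 and 91.4 in total RNA replicates 3 and 4, with a median difference of -13.1 points. Poly(A) replicate 2 and total RNA replicate 3 were thus level. Rpl10 had 55.1 and 44.9 in poly(A) RNA against 87.0 and 95.8 in total RNA, and Rpl27 had 31.1 and 48.9 in poly(A) RNA against 92.1 and 78.0 in total RNA. The brightest member, Rpl37a, had 97.9 and 96.2 in poly(A) RNA against 98.3 and 99.0 in total RNA. The list median was -6.21 (28 probes) and -7.43 (32 probes) without poly(A) replicate 1 or 2. It was -5.38 (28 probes) without total RNA replicate 3 and -9.47 (29 probes) without replicate 4. It turned to 4.97 against the total RNA replicates of all times, where 14 probes were measured.

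Other lists of housekeeping genes were smaller. Glycolysis, the conversion of glucose to pyruvate, had 6 of 8 probes measured, 4 lower and 2 higher in poly(A) RNA, and a median difference of -15.9 points. It was negative in all 19 alternatives run but smaller in several. It was -7.13 (6 probes) without poly(A) replicate 1, -10.1 (6 probes) without total RNA replicate 4 and -6.22 (4 probes) with array 262 included. Pfkl, a phosphofructokinase, had 35.2 and 34.7 in poly(A) RNA against 72.6 and 66.9 in total RNA. Pgk1, the phosphoglycerate kinase, had 55.2 and 71.3 in poly(A) RNA against 90.8 and 97.5 in total RNA. The brightest member, Pfkp, another phosphofructokinase, did not share that order, with 82.7 and 83.9 in poly(A) RNA against 82.3 and 75.9 in total RNA. Translation factors had 5 of 25 probes measured and a median difference of -11.3 points, and Eif3k, a subunit of initiation factor 3, had 42.9 and 21.2 in poly(A) RNA against 68.0 and 74.8 in total RNA. That list median was -0.89 without poly(A) replicate 2, where 9 probes were measured, and -17.3 (5 probes) without total RNA replicate 4.

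Oxidative phosphorylation, the mitochondrial respiratory chain and ATP synthase, was split. Of 29 measured probes, 15 were higher and 14 lower in poly(A) RNA, and the median difference of 0.54 points kept its sign in 5 of 20 alternatives. Cox7b, a subunit of cytochrome c oxidase, had 46.1 and 62.1 in poly(A) RNA against 89.8 and 96.6 in total RNA. Atp5mpl, a small subunit of ATP synthase, had 94.7 and 95.3 in poly(A) RNA against 58.1 in replicate 3 and 2.82 in replicate 4 of total RNA, so its total RNA replicates were themselves far apart. The median differences of the mitochondrial ribosomal proteins (7 measured, -0.90 points), proteasome subunits (10, 1.34), chaperones (12, 4.71), splicing and RNA-binding factors (16, -5.51), C2H2 zinc finger proteins (7, 6.95) and voltage-gated ion channels (5, 0.44) changed sign in at least 1 alternative. Within the splicing list, Hnrnpdl had 19.9 and 41.9 in poly(A) RNA against 85.9 and 90.3 in total RNA, and Hnrnpa1, of the same family of nuclear RNA-binding proteins, had 93.9 and 96.5 in poly(A) RNA against 36.0 and 50.5 in total RNA.

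Inhibitory neuron markers had 5 of 11 probes measured and a median difference of 37.7 points, positive in all 17 alternatives run, from 12.9 to 37.7 points on the rank scale with all replicates. It was 21.4 points without poly(A) replicate 1, where 7 probes were measured, and 22.3 (5 probes) without total RNA replicate 4. Gad2 and Gad1, the enzymes that make GABA, were the members of smallest p. Gad2 ranked at 57.7 and 79.1 in poly(A) RNA against 44.2 and 10.5 in total RNA, and Gad1 at 51.0 and 63.7 in poly(A) RNA against 35.8 and 3.57 in total RNA. In both genes replicate 4 was the dimmer of the total RNA pair. Without it, the differences of Gad2 and Gad1 were 23.0 and 20.8 points. Calb1, a calcium-binding protein of many interneurons and the brightest member, had 65.3 and 65.0 in poly(A) RNA and 68.4 and 67.4 in total RNA.

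Immediate early genes, which neurons transcribe within minutes of activity, had 4 of 12 probes measured, 3 higher and 1 lower in poly(A) RNA. Their median difference was 35.4 points, positive in all 14 alternatives run. It was 16.9 without total RNA replicate 3, where 7 probes were measured. Fos had 49.9 and 58.6 in poly(A) RNA against 24.5 and 26 in total RNA. Dusp1, a phosphatase that switches off MAP kinases, had 75.5 and 48.1 in poly(A) RNA against 11.8 and 28.1 in total RNA. Egr3, a zinc finger transcription factor, had 79.6 and 77.4 in poly(A) RNA against 8.46 in replicate 3 and 60.5 in replicate 4 of total RNA. The size of its difference therefore rested on replicate 3, and without that replicate it was 16.9 points.

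Synaptic vesicle genes had 12 of 23 probes measured, 7 higher and 5 lower in poly(A) RNA, with a median difference of 14.7 points. It was 8.21 points (13 probes) without poly(A) replicate 1, 2.65 (14 probes) without total RNA replicate 3 and 6.61 (13 probes) without replicate 4. The sign turned in 3 of 19 alternatives. Napb, an adaptor for the NSF protein that takes SNARE complexes apart, was on the arrays as 2 probes that disagreed. The probe NM_019632 had 32.3 and 31.6 in poly(A) RNA against 87.7 and 80.4 in total RNA. The probe X61455 had 98.0 and 94.1 in poly(A) RNA against 88.2 in replicate 3 and 4.59 in replicate 4 of total RNA. The difference was -52.1 points for NM_019632 and 49.6 points for X61455, so no direction can be given for the gene. Syngr3, a vesicle membrane protein, had 21.1 and 14.6 in poly(A) RNA against 70.8 and 49.7 in total RNA.

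**Figure D4:**
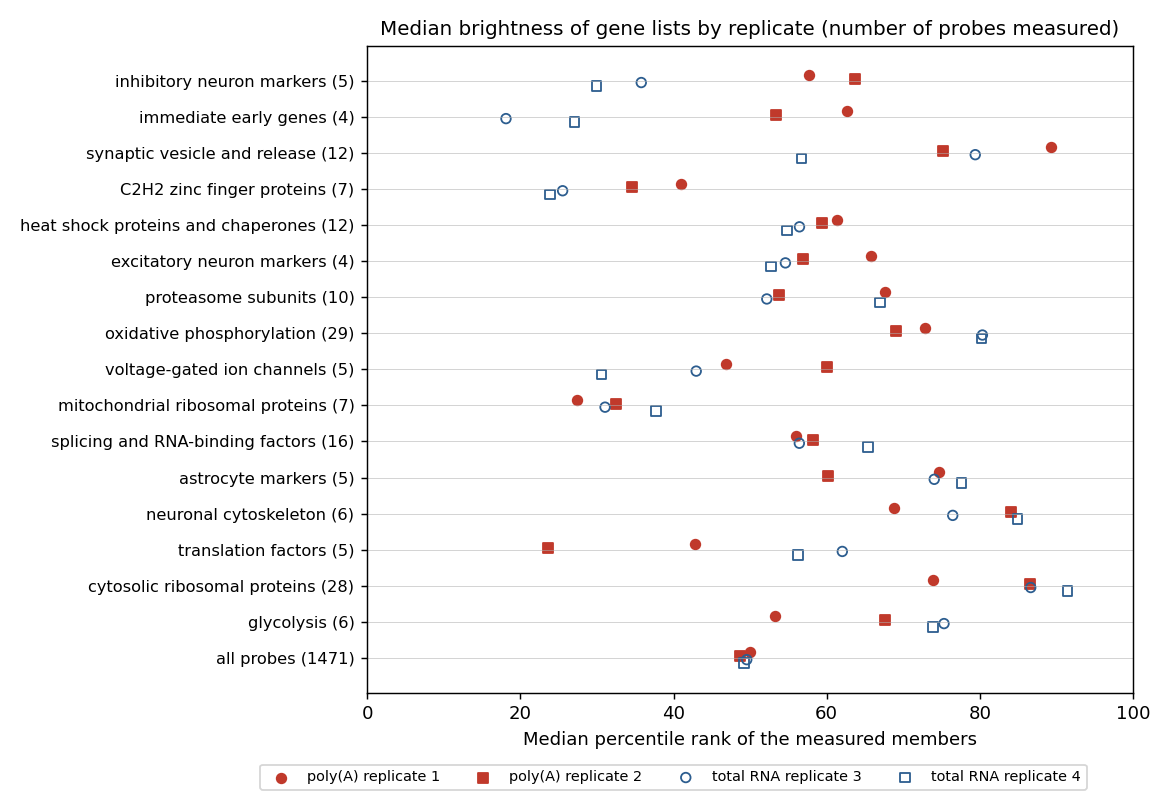
Median percentile rank of the measured members of each gene list with at least 4 measured probes, by replicate (filled for poly(A), open for total RNA), with the number of probes in brackets and all 1471 probes in the bottom row. Inhibitory and excitatory neuron markers, immediate early genes, C2H2 zinc finger proteins, chaperones and voltage-gated ion channels lie higher in both poly(A) replicates. Glycolysis, translation factors and oxidative phosphorylation lie lower, as do cytosolic ribosomal proteins, whose poly(A) replicate 2 and total RNA replicate 3 are level. The median difference per probe is near 0 for oxidative phosphorylation (0.54) and voltage-gated ion channels (0.44). It is also small for excitatory neuron markers (2.12), of which 2 members are higher and 2 lower.

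The plot of list medians also shows the remaining cell type lists with 4 or more probes. Excitatory neuron markers had 4 of 13 probes measured and a median difference of 2.12 points, which kept its sign in 12 of 14 alternatives. It was -7.98 points without poly(A) replicate 1, where 5 probes were measured. Of the 4 probes, 2 pulled in opposite directions. Grin2b is given above, and Nrgn, the calmodulin-binding protein neurogranin of excitatory synapses, had 30.4 and 27.4 in poly(A) RNA against 69.1 and 68.7 in total RNA. Neuronal cytoskeleton genes had 6 measured probes and a median difference of -6.39 points, which turned sign in 3 of 19 alternatives, and Pfn2, the neuronal profilin, had 54.6 and 35.1 in poly(A) RNA against 93.9 and 84.1 in total RNA. Astrocyte markers had 5 measured probes and a median difference of -6.12 points, which turned sign in 5 of 16 alternatives. Slc1a3, the astrocytic glutamate transporter, had 76.7 and 75.7 in poly(A) RNA, against 6.08 in replicate 3 and 81.3 in replicate 4 of total RNA. Oligodendrocyte, microglia, endothelial, and choroid plexus and meninges markers had 1 measured probe each, and keratins and olfactory receptors 2 each. P2ry12, the microglial purine receptor, had 64.3 and 68.8 in poly(A) RNA against 22.9 and 48.9 in total RNA. In tissue RNA of this kind, fewer cells of a type and less RNA per cell cannot be told apart. RNA type and print layout differed here too, so these marker values give no measure of cell content.

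Transcripts known to lack a poly(A) tail could be followed only through whether a probe had a value. The arrays held 6 probes for replication-dependent histones, and none had a value on all 7 arrays. H1f6 had a value on 0 of 3 poly(A) arrays and on 4 of 4 total RNA arrays, and H2bc4 on 1 of 3 poly(A) arrays and 3 of 4 total RNA arrays. H4c1 was seen on 2 of 3 poly(A) arrays and 4 of 4 total RNA arrays, and H1f5 on 1 of 3 and 3 of 4. H1f4 had a value on 1 poly(A) and 1 total RNA array, and H1f1 on 1 poly(A) array and 0 total RNA arrays. Over all 9008 probes, between 41.9% and 67.7% had a value on a poly(A) array and between 45.6% and 87.2% on a total RNA array, and the lowest and highest shares were thus smaller on poly(A) arrays. Replacement histones, whose mRNAs carry a tail, had 2 measured probes. Macroh2a1 had 85.0 and 78.0 in poly(A) RNA against 60.2 and 53.6 in total RNA, and H2az1 had 69.7 and 37.0 in poly(A) RNA against 83.5 and 70.3 in total RNA. Meg3, a tailed long noncoding RNA of neurons, had 63.7 and 89.6 in poly(A) RNA and 79.5 and 77.4 in total RNA, with overlap.

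Some probes had a value on every array of 1 RNA type and on none of the other. Of 9008 probes, 14 had values on all 3 poly(A) arrays and no total RNA array. A further 202 had values on all 4 total RNA arrays and no poly(A) array. These counts also depend on the share of all probes with a value, which was 41.9% to 67.7% on poly(A) arrays and 45.6% to 87.2% on total RNA arrays. How far that share gave the counts was not tested. Of the 14, the brightest were Birc6, Obp1b, Cops3, Haghl, Purb and Foxb2. Birc6, a large ubiquitin-conjugating enzyme that restrains cell death, lay at percentiles 90.1, 94.8 and 80.7 among all usable probes of arrays 306, 310 and 314. Of the 202, the brightest were Slc22a12, Phtf1, Rufy3, Spdye4a, Grhpr and 1700024J04Rik. Rufy3, a neuronal protein of axon growth, lay at 59.0, 88.9, 88.1 and 85.0 on arrays 417, 419, 497 and 498, and Grhpr, the glyoxylate reductase, at 54.4, 85.8, 73.5 and 72.0.

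Genomic span was not a feature the difference followed closely. Across 1457 probes with a gene span, Spearman's rho of span with the difference was 0.063. Genes were split into 4 groups of near equal number by span. The group with the shortest spans had median ranks of 51.7 and 50.9 in poly(A) replicates 1 and 2, against 57.1 and 56.9 in total RNA replicates 3 and 4, and a median difference of -2.60 points. The group with the longest spans had 49.5 and 49.4 in poly(A) RNA against 46.0 and 44.1 in total RNA, and a median difference of 0.45 points. Genomic span includes introns and is not transcript length.

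Setting the 2 poly(A) replicates against the 7 total RNA replicates of 18, 72 and 192 h added replicates, of which 6 shared spot positions with the poly(A) arrays. It mixed times after injection, and 633 probes had a value throughout. The test called 7 of them (1.11%), 2 higher and 5 lower in poly(A) RNA, and 102 had an unadjusted p under 0.05. All 7 are named here, including 4 (Il33, Sema5b, Hdhd3 and Ucn) chosen after their values were seen. Il33, a nuclear cytokine of the interleukin 1 family, ranked at 83.6 and 92.5 in poly(A) replicates 1 and 2, against 2.76 to 47.7 with a median of 10.6 in the total RNA replicates. Its difference was 70.0 ± 14.8 points (SE), with a limma adjusted p of 0.0165. Csnk2a1 had 76.1 and 74.6 in poly(A) RNA, against 1.82 to 37.7 with a median of 7.58 in total RNA, and the same adjusted p by limma. No total RNA replicate of any time reached a poly(A) replicate for either gene.

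The 5 lower probes were Napb (NM_019632), Hoxb8, Ucn, Hdhd3 and Sema5b. Ucn, the stress peptide urocortin, had 19.8 and 21.9 in poly(A) RNA, against 61.9 to 97.4 with a median of 85.8 in total RNA, and a limma adjusted p of 0.0214. Hoxb8 had 8.45 and 15.2 in poly(A) RNA, against 45.6 to 87.4 with a median of 72.2 in total RNA. Sema5b, a semaphorin of axon guidance, had 11.3 and 24.2 in poly(A) RNA, against 53.9 to 84.4 with a median of 75 in total RNA. Again no total RNA replicate overlapped. Hdhd3, a hydrolase-like protein, had 16.7 and 18.2 in poly(A) RNA, against 54.8 to 92.5 with a median of 74.7 in total RNA. Napb had 22.5 and 25 in poly(A) RNA, against 70.7 to 99.9 with a median of 88.9 in total RNA, and its other probe was not among the 633. Of the 24 genes above, 12 were measured throughout, and 2 (Csnk2a1 and Hoxb8) were called.

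**Figure D5:**
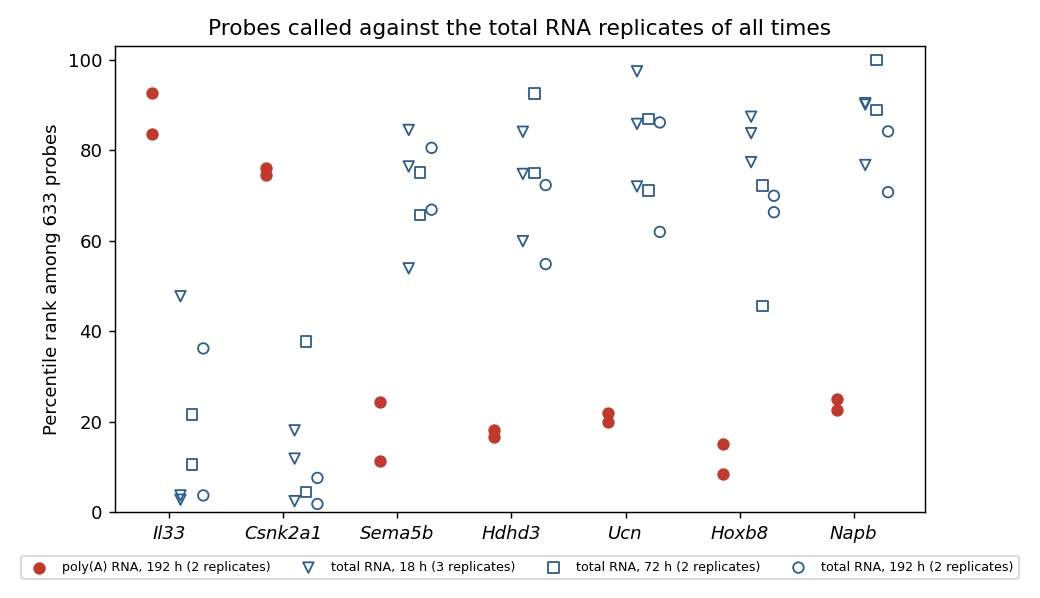
Percentile rank among 633 probes of the 7 probes called against the total RNA replicates of all times, for 2 poly(A) replicates (filled) and 7 total RNA replicates (open symbols, by time). Il33 and Csnk2a1 are higher in poly(A) RNA and the other 5 lower, and the total RNA replicates of 18, 72 and 192 h lie on the same side of the poly(A) replicates for all 7.

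As a measure of layout with RNA type held, total RNA replicate 3 at 192 h, alone on layout 4, was compared with the 6 total RNA replicates on layout 5. Time was not a term, and the lone replicate was assumed to vary like the rest. Limma called 0 of 1026 probes (0%), the smallest adjusted p was 0.807, and 41 probes (4%) had an unadjusted p under 0.05, 12 higher and 29 lower on layout 4. Without the 72 h replicates it called 0 of 1214 (0%), with 138 probes at an unadjusted p under 0.05 and a smallest adjusted p of 0.0664. With 1 replicate on layout 4, a difference between layouts of the size seen for single genes may go uncalled.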

How the data were processed

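Per the file headers, each deposited scanner file (3 per array) gives, for both channels of 10080 spots, a spot intensity with local background subtracted by the authors' software, on a linear scale, and the spot's area. The authors' deposited score per spot, a log ratio of unstated base, served only to check spot order (correlation with scanner ratios 0.325 to 0.646 on the 7 arrays). The image software is not given in the sources used here. Channel A was taken as Cy3. Spots without a usable flag and a positive intensity in both channels were left out. The log2 intensities of both channels were averaged, files set to a common median and averaged, spots of 1 probe averaged, and probes with a value on all 7 arrays ranked as percentiles per array. Arrays of a replicate were averaged. The difference is poly(A) minus total RNA, fitted with limma 3.58.1 in R 4.3.3 (lmFit, eBayes, Benjamini-Hochberg, 0.05). The fit was tested on simulated data. Names came from the platform tables, 8909 of 9008 symbols updated by gene identifier with a table of assembly GRCm38.p6. Array 449 was also left out of the total RNA of all times. The number of arrays limits the precision.

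Named were the 12 genes of smallest p per direction without overlap (none being called), 2 of smallest p and the brightest per list, the 6 brightest per RNA type and up to 6 seen on 1 type only. Members and lists were chosen with earlier results of these data known. Alternatives changed the scale, background, channel, scanner file, sub-grid, filter, variance trend, arrays and replicates. Brightness per pixel was added after the data were seen.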

Additional observations from a re-analysis of the deposited data

Results flagged for a closer look

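On 26 sets of array values (5 measures for the 4 arrays of each RNA type at 192 h, array 262 included, and the medians of 16 gene lists on the 4 total RNA arrays), 2 held an array far from its group by Dixon's criterion, which chance meets in about 1 set of 20. The median spot intensity of total RNA array 419 was 262700 units, against 139700, 120000 and 131100 on arrays 417, 497 and 498. On the same array the median rank of the neuronal cytoskeleton list was 74.4, against 86.8, 86.9 and 86.0 on arrays 417, 497 and 498. Pairs of arrays from 1 replicate are not independent.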

How the results depend on the processing

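The count of 0 called probes was also 0 in 16 of the 20 alternatives to the 192 h comparison. It was 59 (28 higher and 31 lower in poly(A) RNA) with arrays as samples and the replicate as a random block (correlation 0.328), and 7 with total RNA of all times. Leaving out 1 replicate gave 0 to 256. Among list members the count was 5 with arrays as samples, 1 with total RNA of all times and 0 to 34 without 1 replicate. The cause was not tested, beyond the source of the spread given with those fits. The layout comparison stayed at 0 in its 4 alternatives. Mean rho between RNA types (0.420) minus mean rho within them (0.637) was -0.217, and -0.161 over all probes shared by each pair. The mean within types joins 0.851 for the poly(A) pair, on layout 3, and 0.424 for the total RNA pair, on layouts 4 and 5. The total RNA pair alone was thus level with the mean between types. No paired analysis was possible because the poly(A) replicates are numbered 1 and 2 and the total RNA replicates 3 and 4, so they share no number.

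In the main fit the difference was -1.80 points for Meg3, 13.3 for Kcnd2 and 32.5 for Slc1a3. It was -11.9 for Eng, 3.98 for Krtap4-13 and -10.7 for Tssk1. The difference of Meg3 turned to 0.30 (PBS channel), 4.99 and 0.71 (first and second scanner file), 0.82 (arrays as samples) and 10.01 (without poly(A) replicate 1), and was -9.51 without poly(A) replicate 2. Without total RNA replicate 3, Kcnd2 turned to -1.48 and Slc1a3 to -4.85, and without replicate 4 they were 27.1 and 70.0. Eng turned to 0.30 (tumour channel), 4.43 and 3.64 (without poly(A) replicate 2 or total RNA replicate 4), and was -28.6 without total RNA replicate 3. Krtap4-13 turned to -0.31 (all usable probes), -2.60 (background added), -6.78 (second file), -3.40 (all times), -1.28 and -1.12 (without poly(A) replicate 1 or total RNA replicate 3), and was 17.7 without poly(A) replicate 2, and Tssk1 to 1.45 (tumour channel). With 2 replicates a type, limits are set by their spread. Dim probes are absent, since a value on every array was required.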
